A study of Homo sapiens with 2 samples.

Results

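The 9 genes described here encode the switch that slows protein synthesis under stress, with the relay that connects mitochondria to it. They are the eIF2alpha kinases EIF2AK1, EIF2AK2, EIF2AK3 and EIF2AK4, the substrate EIF2S1, the phosphatase subunits PPP1R15A and PPP1R15B, and the mitochondrial relay genes OMA1 and DELE1. The members were found by symbol among array probe sets that carry 1 gene symbol. All 9 were found, each with 1 probe set, out of 18417 genes measured this way, and 0 probe sets with several symbols named a member. The values come from U251 cells, an established human glioblastoma line grown in high-glucose DMEM. The cells were given the solvent DMSO, or 5 µM of the Gamitrinib G-TPP, for 6 h. G-TPP couples an Hsp90 inhibitor of the geldanamycin class to triphenylphosphonium, a cation drawn into mitochondria, and the study asked how mitochondrial genes respond to inhibition of mitochondrial Hsp90 chaperones. Each condition has 1 Affymetrix array and 1 cell line was used. With no replicate, the differences below carry neither an error nor a p-value, and they describe these cultures only.

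Translation initiation needs eIF2 bound to GTP, which brings the initiator tRNA to the ribosome. Each of the kinases answers to another stress and phosphorylates the alpha subunit of eIF2, the product of EIF2S1. Phosphorylated eIF2 then blocks its own exchange factor, eIF2B, so that general translation falls while a few mRNAs with upstream reading frames, ATF4 among them, are translated better. The phosphate is taken off again by protein phosphatase 1 (PP1) when it is guided to eIF2alpha by PPP1R15A (GADD34), which stress induces, or by PPP1R15B (CReP), which is present without stress. Mitochondrial stress can reach this switch through OMA1, a protease of the inner membrane, which cleaves DELE1. The DELE1 fragment gathers in the cytosol and activates EIF2AK1 (HRI).

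PPP1R15A and EIF2AK3 were the members that differed strongly between the arrays. The inducible phosphatase subunit was 9.83-fold higher with G-TPP and the ER-resident kinase 4.79-fold higher. PPP1R15B was 1.66-fold and EIF2AK2 1.23-fold higher. The array reads RNA of the whole culture, so a difference in every cell and one in a part of the cells cannot be told apart. The remaining 5 members, EIF2AK1, EIF2AK4, EIF2S1, OMA1 and DELE1, had log2 differences (G-TPP minus DMSO) between -0.12 and 0.03. All 9 passed the brightness filter, an intensity of at least 239.2 in the brighter array. At the size used here to count a gene, 2-fold, 2 of 9 members were higher and 0 lower. Of the 11091 genes that passed the filter 2.8% were at least 2-fold higher and 0.55% at least 2-fold lower. At 1.5-fold the counts were 3 higher and 0 lower, beside 7.37% and 3.23% of all kept genes, and at 3-fold they were 2 and 0, beside 0.875% and 0.0631%. The median log2 difference was 0.03 over the 9 members and -0.04 over all kept genes.

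**Figure D1:**
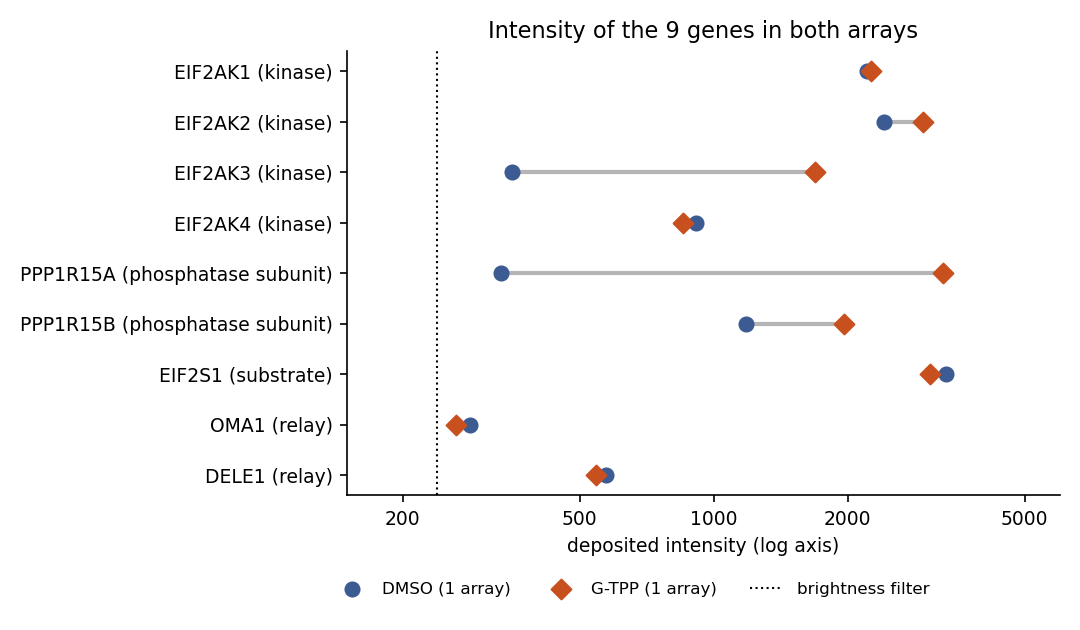
Deposited intensity (log axis) of each of the 9 genes, 1 point per array, circles for DMSO and diamonds for G-TPP, with the brightness filter as a dotted line. EIF2AK3 (352.8 to 1689) and PPP1R15A (332.9 to 3272) are far apart between the arrays, PPP1R15B and EIF2AK2 less so, and the other 5 pairs nearly coincide; intensities of different probe sets are not comparable with each other.

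Noise was gauged in 2 ways, neither of which holds the spread between cultures. Olfactory receptors served as genes with little signal: over 341 of them the standard deviation of the log2 difference was 0.19, the largest was 0.80 in size and 0 reached 2-fold. In 314 kept genes with exactly 2 probe sets, the standard deviation per probe set, taken from how far a pair disagreed, was 0.18. Pairs with identical readings, such as that of PPP1R11, were left in and lower this value. On that second scale 5 of the 9 members lay within 1 standard deviation of 0. The cell line was checked by its markers: VIM (7146 with DMSO, 6494 with G-TPP), CD44 (8013 and 7614) and SOX2 (4434 and 1629) were bright. Of the 9 kept astroglial and glioma markers 0 were at least 2-fold higher and 1 lower, beside 2.8% and 0.55% of all kept genes. The lower one was SOX2 at 2.72-fold. SOX9 was 1.98-fold and NES 1.42-fold lower, and SLC1A3 was 1.56-fold higher; their part in the results below was not tested. The astrocyte genes S100B, AQP4 and ALDH1L1 were under the filter. GFAP was barely above it with DMSO (245.2) and under it with G-TPP (231.5). Of the markers of other cells on the array, 2 of 7 immune, 2 of 6 endothelial, 3 of 6 epithelial and 2 of 7 neuronal genes passed the filter, and none of these reached 2-fold. At the shares over all kept genes, that does not set so few genes apart. Their summed intensities with DMSO and G-TPP were 1470 and 1277 for the immune, 1150 and 1106 for the endothelial, 1670 and 1764 for the epithelial, and 1347 and 1193 for the neuronal genes. PTPRC, the pan-leukocyte marker, read 34.8 and 32.9. The brightest markers of other cells were the epithelial CLDN4 (688.6 and 898.1) and the immune CD68 (583.7 and 515.5).

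Among the kinases EIF2AK3 alone passed 2-fold. EIF2AK3 encodes PERK, which spans the ER membrane and is set free to act when unfolded proteins gather in the ER lumen. Its probe set (8053668) read 352.8 with DMSO and 1689 with G-TPP, a log2 difference of 2.26. The DMSO value was 2.04 times the level that 95% of olfactory receptors stayed under (172.6), so the gene was above the dimmest signals in both arrays. Only 39 of the 11091 kept genes, EIF2AK3 included, had a difference this high, which is 0.352%.

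EIF2AK2 encodes PKR, which binds double-stranded RNA and is itself induced by interferon. Its probe set (8051501) read 2411 with DMSO and 2962 with G-TPP, a log2 difference of 0.30. Of all kept genes 33.3% had a difference at least this large in size. EIF2AK1 encodes HRI, the haem-regulated kinase on which the mitochondrial relay converges. It (8138045) read 2214 and 2261, a log2 difference of 0.03, and 92.4% of kept genes differed by at least as much. EIF2AK4 encodes GCN2, which senses uncharged tRNA and stalled ribosomes. It (7982620) read 914.8 and 854.1, a log2 difference of -0.10, which 74.4% of kept genes matched or exceeded in size. On the log2 scale the difference of EIF2AK3 was larger than that of EIF2AK2 by 1.96, of EIF2AK1 by 2.23 and of EIF2AK4 by 2.36.

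The substrate gene differed little. EIF2S1 (7975224) read 3325 with DMSO and 3064 with G-TPP, a log2 difference of -0.12. The array measures its mRNA and not its phosphorylation, so the state of the switch itself is not in these data.

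**Figure D2:**
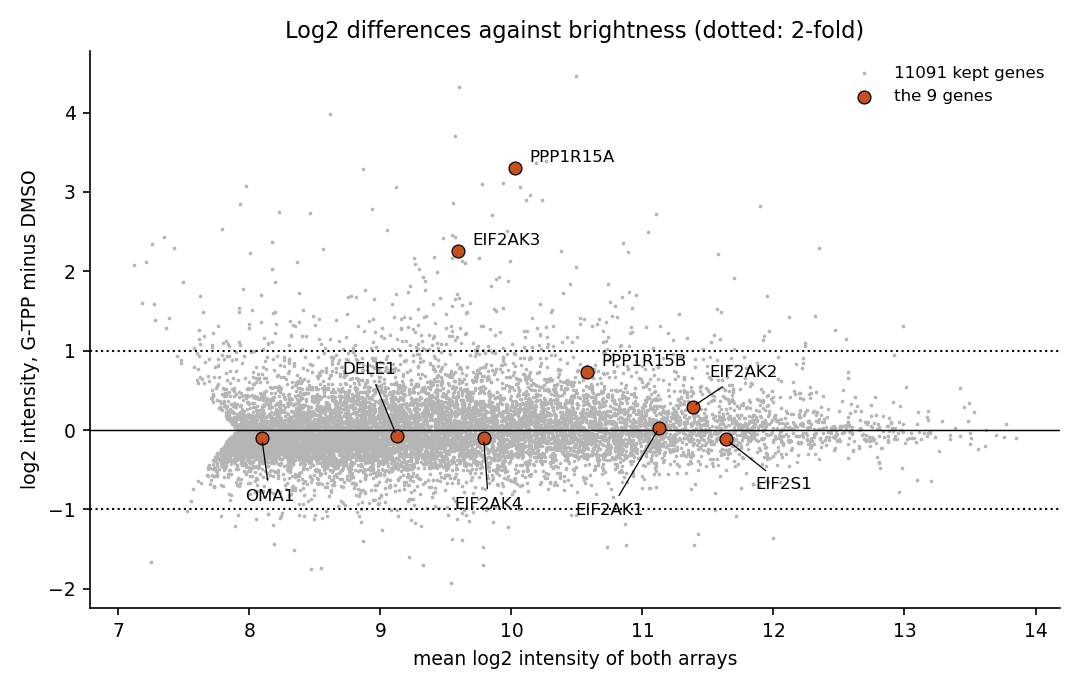
Log2 difference (G-TPP minus DMSO) against the mean log2 intensity of both arrays for the 11091 kept genes (grey) and the 9 genes (orange, named); dotted lines mark 2-fold. PPP1R15A at 3.30 and EIF2AK3 at 2.26 stand above the cloud, PPP1R15B at 0.73 lies at its upper edge, and the other 6 lie inside it.

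The phosphatase subunits were both higher with G-TPP, by very unequal amounts. PPP1R15A (8030128) read 332.9 with DMSO and 3272 with G-TPP, a log2 difference of 3.30. It ranked 7 of the 11091 kept genes counted from the highest difference. Its DMSO reading was 1.93 times the olfactory level and its G-TPP reading 18.8 times. PPP1R15B (7923659) read 1182 with DMSO and 1966 with G-TPP, a log2 difference of 0.73 that missed 2-fold. Of all kept genes 5.11% were at least as high. The difference of PPP1R15A exceeded that of PPP1R15B by 2.56 on the log2 scale, a 5.91-fold larger ratio of G-TPP to DMSO. The DMSO reading of PPP1R15B was 6.85 times the olfactory level, so background may bear on both ratios unequally.

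The 250 bases before the annotated start of PPP1R15A, PPP1R15B and EIF2AK3 are shown to set the promoters of the 3 members that were at least 1.5-fold higher side by side. They are RefSeq sequences of GRCh38.p14, written 5′ to 3′ on the gene's own strand: PPP1R15A at chr19:48872171-48872420 (plus strand), PPP1R15B at chr1:204411818-204412067 (minus strand) and EIF2AK3 at chr2:88627465-88627714 (minus strand). Capitals mark matches, on either strand, to the C/EBP-ATF response element (TGATGNAA), the cAMP response element (TGACGTCA) or its shorter core (TGACG), which lies inside the full element on both strands. CREB and ATF proteins are known to bind the cAMP response element, and ATF4 paired with a C/EBP protein the C/EBP-ATF element.
PPP1R15A: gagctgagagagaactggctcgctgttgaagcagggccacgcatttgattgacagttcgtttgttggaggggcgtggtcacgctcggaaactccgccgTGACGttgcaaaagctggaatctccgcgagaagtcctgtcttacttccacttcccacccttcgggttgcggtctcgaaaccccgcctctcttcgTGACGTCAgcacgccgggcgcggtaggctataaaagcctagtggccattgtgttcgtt
PPP1R15B: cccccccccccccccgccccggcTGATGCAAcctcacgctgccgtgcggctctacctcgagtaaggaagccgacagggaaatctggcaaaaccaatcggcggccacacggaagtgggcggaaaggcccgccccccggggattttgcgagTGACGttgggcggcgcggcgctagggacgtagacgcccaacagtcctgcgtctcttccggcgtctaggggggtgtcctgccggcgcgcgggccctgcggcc
EIF2AK3: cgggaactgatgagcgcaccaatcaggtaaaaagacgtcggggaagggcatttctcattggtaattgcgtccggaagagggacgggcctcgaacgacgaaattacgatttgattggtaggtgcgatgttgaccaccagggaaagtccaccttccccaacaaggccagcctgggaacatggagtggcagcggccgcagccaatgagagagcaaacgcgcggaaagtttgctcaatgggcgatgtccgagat

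The motifs were searched from 250 bases before to 50 bases after the start, on both strands. This was done for 8 members, all but EIF2AK1. PPP1R15A holds the full cAMP response element at -58 to -51, and 1.98% of 27305 gene windows hold it. Its shorter core also occurs at -152 to -148, where it overlaps an antioxidant response element core (TGACNNNGC, found in 13.6% of windows) at -152 to -144. A further antioxidant core lies at -179 to -171. OMA1 also holds this core, at -5 to 4, so 2 of the 8 members have it. PPP1R15B is the 1 member with the C/EBP-ATF letters, at -227 to -220, and 3.67% of windows hold them. It also has a TGACG at -101 to -97, a sequence found in 25.0% of all windows and in 4 of the 8 members. EIF2AK3 has none of these and 4 CCAAT boxes, of which 2 are on each strand. CCAAT is found in 35.7% of windows and in 4 of the 8 members, with 1 match in PPP1R15B at -159 to -155, 2 in EIF2AK2 and 1 in DELE1. The ER stress response element (CCAAT and CCACG with 9 bases of any kind between them), the unfolded protein response core TGACGTGG and the heat shock element (GAA, TTC and GAA with 2 bases of any kind between neighbours) were in 0 of the 8 windows, against 0.0806%, 0.795% and 0.487% of all windows. A match is a run of letters and was not tested for binding, and sites outside the window were not searched.

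**Figure D3:**
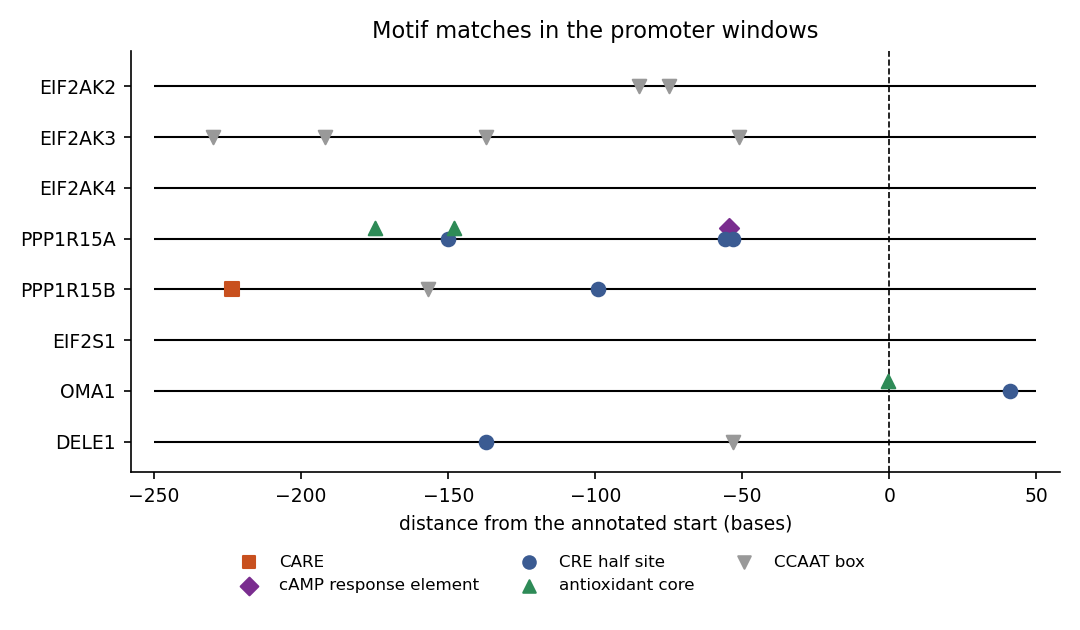
Positions of motif matches in the promoter windows of 8 members, as distance in bases from the annotated start (dashed line); each symbol is the centre of 1 match on either strand. The cAMP response element appears in PPP1R15A and the C/EBP-ATF element (CARE) in PPP1R15B, while EIF2AK3 has 4 CCAAT boxes and none of the other motifs; the blue circles are the TGACG core.

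The mitochondrial relay genes differed little in mRNA. OMA1 (7916570) read 283.1 with DMSO and 264.1 with G-TPP, a log2 difference of -0.10 that became 0.0062 after lowess centring, so its sign turned with the scaling. Both readings were dim, at 1.64 and 1.52 times the olfactory level, where background pulls ratios towards 1. DELE1 (8108832) read 573.1 and 544.0, a log2 difference of -0.08, which 80.4% of kept genes matched or exceeded in size. Relay activity lies in cleavage and location of the proteins, which an mRNA array does not read.

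The genes around the switch were taken from lists chosen with earlier results of these data known, and are described by counts. The other subunits of eIF2 and its exchange factor eIF2B had 7 kept genes of 7, of which 0 reached 2-fold, with a median log2 difference of -0.19. At shares of 2.8% higher and 0.55% lower over all kept genes, that count does not set them apart. EIF2S2, the beta subunit, went from 1712 with DMSO to 2539 with G-TPP, a log2 difference of 0.57, whereas EIF2S3, the gamma subunit, had a log2 difference of -0.33. Of the eIF2B genes EIF2B4 had the lowest log2 difference at -0.50 (861.7 and 610.6). EIF2B1, EIF2B2 and EIF2B5 had log2 differences of -0.19, -0.02 and -0.19, and EIF2B3 one of 0.22. The subunits of eIF2 lay on both sides of 0, with EIF2S2 above 0 and EIF2S1 and EIF2S3 below.

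PP1 is guided to its substrates by regulatory subunits, of which PPP1R15A and PPP1R15B are 2. Of 27 genes asked for, 21 were kept, 1 was at least 2-fold higher and 0 lower, with a median log2 difference of -0.17. That count is near the shares over all kept genes, 2.8% higher and 0.55% lower. The catalytic subunits PPP1CA, PPP1CB and PPP1CC had log2 differences of -0.17, -0.02 and -0.16. The 1 gene at 2-fold was PPP1R3C, which guides PP1 to glycogen and went from 182.8 to 603.4 (3.30-fold higher). Its DMSO reading was under the brightness filter of 239.2 and close to the olfactory level of 172.6, so it was kept through its G-TPP reading. PPP1R10, a nuclear PP1 subunit, was 1.72-fold lower. Its 3 probe sets hold identical readings, so they are not separate measurements. PPP1R12A, the myosin phosphatase subunit, had a log2 difference of 0.42 and PPP1R9B (spinophilin) one of -0.38.

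Among partners of the kinases, the genes past 2-fold were both chaperones of the ER. Of 17 kept genes 2 were at least 2-fold higher and 0 lower, beside 2.8% and 0.55% of all kept genes. The median log2 difference of the 17 was 0.08. DNAJC3 (p58IPK), an ER cochaperone also known as an inhibitor of PKR and PERK, went from 706.3 to 2947, 4.17-fold higher. HSPA5 (BiP), the ER Hsp70 that holds PERK inactive, went from 5176 to 12824, 2.48-fold higher. HSP90B1, the ER Hsp90, had a log2 difference of 0.54 and NCK1, an adaptor that binds PERK, one of 0.58. On the GCN2 side its activator GCN1 had a log2 difference of -0.39 and its inhibitor IMPACT one of 0.20. The other ER stress sensors on the array were higher by less than EIF2AK3: ATF6 1.66-fold (3165 and 5268) and ERN1, which encodes IRE1, 1.51-fold (425.1 and 639.8). ERN2 was under the filter.

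Of the interferon-induced genes, the class of EIF2AK2, 19 were on the array and 8 were kept. Their count at 2-fold was 0 in either direction, which at shares of 2.8% higher and 0.55% lower over all kept genes does not set them apart, and the median log2 difference was -0.08. IRF7, OAS1, OAS3 and IFI6, the 4 that differed most, all had lower values, with log2 differences of -0.34, -0.20, -0.17 and -0.13. EIF2AK2 at 0.30 lay above all 8 of them, whose highest value was 0.09.

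The list around OMA1 and DELE1 holds genes for inner membrane proteases, scaffolds and import. Of its 21 kept genes 0 reached 2-fold, a count near the shares over all kept genes (2.8% higher, 0.55% lower), and the median log2 difference was -0.14. OPA1, the fusion protein that OMA1 cleaves, had a log2 difference of 0.02 (2780 and 2817), and YME1L1, the protease that shares this substrate, one of 0.28. PHB1, a prohibitin of the ring that scaffolds inner membrane proteases, was 1.56-fold lower (4935 and 3158), and the protease HTRA2 was 1.57-fold lower. ATAD3A, an inner membrane ATPase, had a log2 difference of -0.46, and the matrix protease LONP1 one of 0.56.

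**Figure D4:**
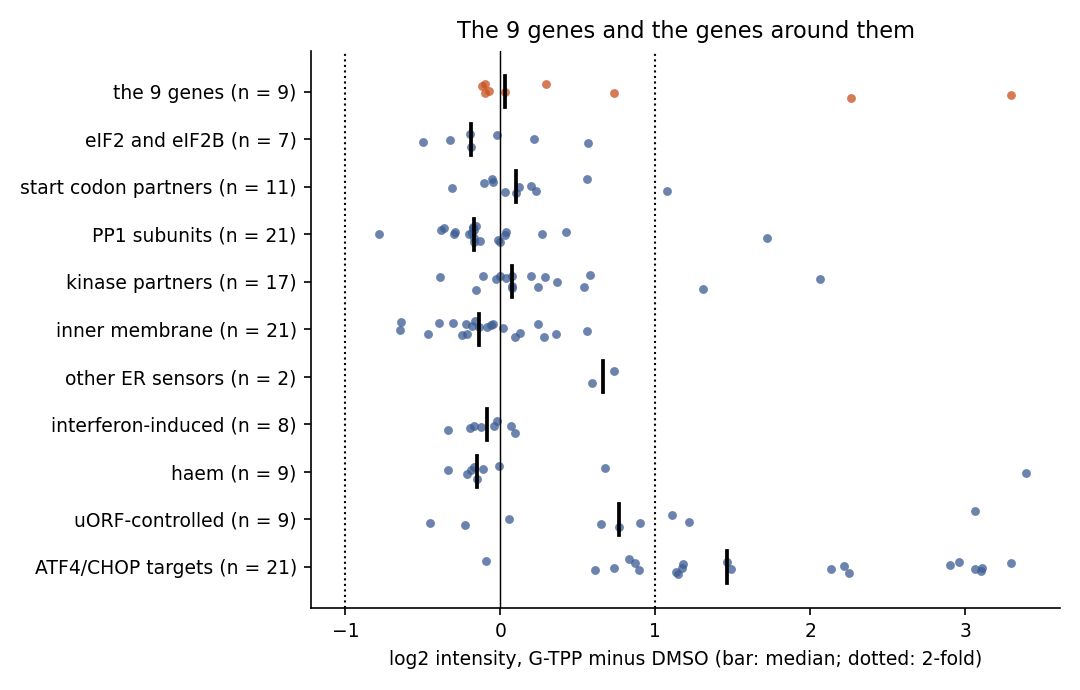
Log2 difference (G-TPP minus DMSO) of each kept gene, by list, with the 9 genes in orange, a bar at each list's median and dotted lines at 2-fold. The median of the ATF4 and CHOP targets is 1.46, EIF2AK3 at 2.26 lies among them and PPP1R15A at 3.30 at their upper end, while the eIF2 and eIF2B, PP1 and inner membrane lists have medians of -0.19, -0.17 and -0.14; vertical scatter within a row carries no value.

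Downstream of the switch, genes known to be translated through upstream reading frames were higher in mRNA in part. Of 9 kept genes 3 were at least 2-fold higher and 0 lower, beside 2.8% and 0.55% of all kept genes. The median log2 difference of the 9 was 0.77. DDIT3, which encodes CHOP, an activator of PPP1R15A, went from 371.6 to 3104 and had a log2 difference of 3.06. SLC7A1, an arginine transporter, went from 2008 to 4323 (2.15-fold higher). ATF4, the factor through which the switch acts, went from 1255 to 2919 by the probe set with the higher mean. The other went from 1785 to 1327, so the direction of ATF4 depends on the probe set. The count of 3 includes ATF4 by the first of these. With the mean over probe sets the count was 2 and the median 0.65. IBTK, IFRD1 and EPRS1 were 1.87-fold, 1.70-fold and 1.57-fold higher. ATF5, BACE1 and SLC35A4 had log2 differences of 0.05, -0.23 and -0.45. In the list of ATF4 and CHOP targets 15 of 21 kept genes were at least 2-fold higher and 0 lower, beside 2.8% and 0.55% of all kept genes. The median log2 difference of the list was 1.46. Among these 15, ALDH1L2, ATF3 and GDF15 had DMSO readings under the brightness filter of 239.2 and were kept through their G-TPP readings. ATF3 had a DMSO reading of 144.9, under the olfactory level, and was at least 2.35-fold higher against that level. The 4 largest differences were those of ALDH1L2 (at least 8.45-fold higher, set against the olfactory level since its DMSO reading was under it), CHAC1 (334.3 to 2884), SESN2 (299.4 to 2570) and GDF15 (192.5 to 1611). The DMSO reading of GDF15 was close to the olfactory level of 172.6. PPP1R15A, with a log2 difference of 3.30, lay above CHAC1 at 3.11, the highest of the targets that were above the olfactory level in both arrays.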

How the data were processed

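Each condition (DMSO, G-TPP) was 1 array, grouped by the agent in the labels. Values in the deposited table are intensities of probe sets on a linear scale, which the authors made with RMA in Affymetrix Expression Console 1.1.2, per the submitters' processing notes; how the linear scale arose is not given in the sources used here. RMA makes arrays alike in distribution, so a change in total RNA per cell is not visible.

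Of 33297 probe sets, 19460 had 1 symbol in the platform annotation (1754 had several), updated by gene ID from RefSeq (GRCh38.p14). For a gene with several, the probe set with the highest mean was used. Genes were kept if their brighter array reached the median of that value over all probe sets. Log2 differences carry no pseudocount, and genes were counted at 2-fold without a test. The size rule was tested on simulated data. Members and lists were chosen with earlier results of these data known. Named were all members, the 4 largest differences per list, every kept gene of lists of up to 10 (marker lists aside), preselected partners, marker genes in the check of the cell line and, for members at 2-fold, the 3 genes nearest in difference. Alternatives were lowess centring (span 0.3), median centring, quantile normalization, other filters and probe set rules, a pseudocount of 16, and 1.5-fold and 3-fold thresholds. Promoter windows are RefSeq's, 1 per gene. Python 3.11.15, statsmodels 0.14.6 (lowess), pandas 2.3.3, matplotlib 3.10.9 and numpy 2.4.6 were used. The number of arrays, 1 per group, limits precision.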

Additional observations from a re-analysis of the deposited data

How the results depend on the processing

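At 2-fold, 2 members higher and 0 lower held under each normalization, filter and pseudocount tried, and at 3-fold; other probe set rules could not change a member, since each has 1 probe set; at 1.5-fold, 3 were higher and 0 lower. PPP1R15A ranged from 3.24 to 3.34, EIF2AK3 from 2.21 to 2.30 and PPP1R15B from 0.69 to 0.78 in log2 difference. No member's value moved by more than 0.11, and OMA1 was the 1 member whose sign changed, after lowess centring. The median of the members was 0.30 in place of 0.03 with the 75th percentile filter, which left 7 of 9 members; there 4.36% of 5341 genes were at least 2-fold higher. Of 456 comparisons for the lists, marker lists included, 20 moved. A count moved if it changed by more than 1.5-fold or to or from 0, and a median if it shifted by at least 0.18. Counts that stayed at 0 are among those that did not move. Genes at 1.5-fold or 3-fold in place of 2-fold numbered 6 or 1 (2-fold: 3) among those with upstream reading frames, and ATF4 and CHOP targets at 3-fold numbered 9 (2-fold: 15). Of the kinase partners 1 reached 3-fold. Over all kept genes 7.37% were at least 1.5-fold higher and 0.875% at least 3-fold higher. PPP1R3C was under the 75th percentile filter. No paired analysis was possible because each group has 1 array, and for the same reason no replicate could be left out.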

Other observations

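Haem genes were examined because haem restrains EIF2AK1. Of 9 kept genes 1 was at least 2-fold higher and 0 lower, beside 2.8% of all kept genes that were higher, with a median log2 difference of -0.15. That gene was HMOX1, haem oxygenase, which went from 380.4 to 3988 (10.5-fold higher). FECH, which inserts iron in the last step of haem synthesis, was 1.60-fold higher, while the synthesis enzymes UROD and CPOX had log2 differences of -0.34 and -0.22. Factors that deliver the initiator tRNA or choose the start codon had 1 of 11 kept genes at 2-fold or higher and 0 lower. The shares over all kept genes were 2.8% and 0.55%. The median log2 difference of these factors was 0.10. EIF1B, a relative of the start codon factor EIF1, went from 412.8 to 870.3 (2.11-fold higher), and EIF1 itself had a log2 difference of 0.23. EIF5, which triggers GTP hydrolysis by eIF2, was 1.47-fold higher, and BZW2, a protein related to EIF5, had a log2 difference of -0.31.

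The genes nearest to the strongly higher members were found by the distance between log2 differences over the 2 arrays, which leaves their levels out. Nearest to PPP1R15A were ALDH1L2, a mitochondrial folate enzyme, SLFN5 and HMOX1. The DMSO reading of ALDH1L2, 148.8, was under the olfactory level of 172.6, so its difference is a lower bound (at least 8.45-fold higher) and its place as nearest is uncertain. SLFN5 and HMOX1 lay at distances of 0.065 and 0.093. Nearest to EIF2AK3 were ASNS, asparagine synthetase (610.9 to 2911), XBP1, a transcription factor of the unfolded protein response (870.3 to 4120), and JMY, an actin-nucleating protein, at distances of 0.0068, 0.016 and 0.019. The DMSO reading of JMY, 171.6, was also under that level, so its difference is a lower bound too (at least 4.82-fold higher).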
